A study of Homo sapiens with 9 samples.

Results

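Small nucleolar RNAs (snoRNAs) and small Cajal body RNAs (scaRNAs) were followed through a study of BCLAF1 in MOLM-13 cells, an established human acute myeloid leukemia line. They were chosen by name and by the counts themselves, as the rows of the gene count table named SNORA, SNORD or SCARNA plus a number that were above 0 in at least 3 of the 9 libraries. This gave 168 genes of 56541 in the table: 74 SNORA (box H/ACA), 78 SNORD (box C/D) and 16 SCARNA. Their presence is therefore a description and carries no test. Of 366 rows with such a name, 186 were at 0 in every library and 12 were above 0 in 1 or 2 libraries.

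The study had 3 groups of 3 libraries: RNA-seq of cells carrying the control hairpin shCONTROL, RNA-seq of cells carrying the hairpin shBCLAF1, and RIP, RNA recovered with BCLAF1 from cells of the shCONTROL genotype. All cells received doxycycline at 200 ng/µL for 4 days, and all libraries were labelled batch 1. The RNA-seq libraries came from 2000000 cells and the RIP libraries from 15000000 cells. BCLAF1 is a nuclear RNA-binding protein linked to splicing and mRNA export. The labels name 1 hairpin against BCLAF1 and no mock precipitation, so the RIP libraries are compared with total RNA only. They do not say whether replicates were separate cultures, and p-values then measure only the spread between these libraries.

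SnoRNAs guide the chemical modification of ribosomal RNA, and a few are needed to cut its precursor. Box C/D RNAs bind the methylase fibrillarin and direct 2′-O-methylation, box H/ACA RNAs bind dyskerin and direct pseudouridylation, and scaRNAs direct both reactions on spliceosomal RNAs in Cajal bodies. Most human snoRNAs are cut out of introns of other genes, and a gene count table cannot tell the mature RNA from intron sequence of the surrounding gene. Many surrounding genes make long noncoding RNAs known as snoRNA host genes.

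The promoters of 3 noncoding hosts are shown because members inside them carried much of what follows: SNHG3 holds SNORA73A and SNORA73B, SNHG4 holds SNORA74A and SNORA74D, and ZFAS1 holds SNORD12C. Sequences are from RefSeq (GRCh38.p14), 50 bases before the annotated start to 50 from it, on the plus strand, with the first 5 transcribed bases in capitals. They lie at chr1:28505893-28505992, chr5:139274051-139274150 and chr20:49278592-49278691.
SNHG3: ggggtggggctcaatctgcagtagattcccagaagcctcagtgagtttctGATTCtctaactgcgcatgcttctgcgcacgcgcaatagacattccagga
SNHG4: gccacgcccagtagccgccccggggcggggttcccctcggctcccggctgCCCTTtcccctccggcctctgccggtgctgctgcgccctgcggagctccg
ZFAS1: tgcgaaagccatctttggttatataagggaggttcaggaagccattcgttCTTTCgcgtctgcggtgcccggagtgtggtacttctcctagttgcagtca
SNHG4 and ZFAS1 began with a C followed by 4 pyrimidines, the start typical of ribosomal protein genes, whereas SNHG3 did not at its annotated start. That start was present in 4 of the 14 noncoding hosts with a RefSeq promoter, and in 1429 of all 35116 RefSeq promoters (4.07%).

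The libraries held 25819144 to 36635268 counts. BCLAF1 itself was at 322 ± 8.28 CPM (counts-per-million, scaled by trimmed means over the 9 libraries; SD, n = 3) in shCONTROL and 114 ± 12.9 in shBCLAF1, which is 35.3% of control. BCLAF1 mRNA was 1.74 ± 0.10 (log2, SE) higher in RIP than in shCONTROL. All 9 myeloid markers examined reached at least 1 CPM in every library, and of 12 markers of other cells 7 never did, including CD3E, MS4A1 and EPCAM at 0, while PECAM1 stood at 182 to 659 CPM. Mitochondrial mRNAs took 2.60% to 3.52% of counts in RNA-seq and 0.199% to 0.342% in RIP.

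Among the members, RNA-seq levels were dominated by a few RNAs. Per kilobase of annotated length, SNORD3A was highest in shCONTROL at 1183 ± 123 CPM per kb (SD, n = 3). SNORD3A is a copy of U3, the box C/D RNA needed for early cuts in the ribosomal RNA precursor rather than for modification. SNORA73B followed at 850 ± 39.2 CPM per kb and SNORA73A at 458 ± 69.0 CPM per kb. Both are copies of U17, an H/ACA RNA that also acts in precursor cleavage. The scaRNAs SCARNA10 (423 ± 39.8 CPM per kb) and SCARNA2 (387 ± 17.1 CPM per kb) came next. SNORA73A overlapped SCARNA10 over the replicates, and SCARNA10 overlapped SCARNA2, so their order is not fixed by these data. SNORD17, a long box C/D RNA, stood at 328 ± 24.2 CPM per kb, and SNORD13, which is needed for cytidine acetylation in the small ribosomal subunit RNA, at 184 ± 5.59 CPM per kb.

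Most other members were sparse. The median member had a mean of 13 counts in shCONTROL, and 23 of 168 reached a mean of 100 counts: 10 SNORA, 6 SNORD and 7 SCARNA. Annotated lengths differed by class, with a median of 135 nucleotides for SNORA, 85 for SNORD and 141 for SCARNA, over the 148 members with a RefSeq position. Rows of the imprinted box C/D families were nearly all at or close to 0. All 9 rows of SNORD113 and all 30 rows of SNORD114 were at 0, and 48 of 50 rows of SNORD115 were at 0. SNORD116 had 9 rows, of which 4 were members with no count above 6. SNHG14, the long noncoding gene whose span contains 3 of these members, was abundant all the same, with 17351, 19690 and 18255 counts in shCONTROL. It fell to 6865, 7144 and 6781 counts in shBCLAF1 (log2 fold change −1.51 ± 0.07, adjusted p = 0.000141), and the low rows are a measure of the snoRNA entries only. Of the other genes with a well-known role, SNORD14A and SNORD14E, copies of the U14 RNA, reached at most 26 and 27 counts. SNORD118, SNORD14B, SNORD14C, SNORD14D, SNORD22, SCARNA12, SCARNA13 and SCARNA17 had no row under those names, so their levels are not known here.

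The threshold of 3 libraries separated rows with few counts on either side. SNORD86, with 34, 22 and 81 counts in RIP and 0 in all RNA-seq libraries, and one SNORA62 row with 13 counts in all lay just inside. SNORD3D with 14 counts in all and SNORA11 with 8 lay just outside at 2 libraries each. SNORD86 is therefore a member only through the group in which it was high.

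As shares of each library, the 3 classes were close in RNA-seq and low in RIP. SNORA members took 0.0351%, 0.0406% and 0.0378% of counts in the shCONTROL libraries. They took 0.0290%, 0.0316% and 0.0321% in shBCLAF1, all below every shCONTROL library, and 0.00635%, 0.00319% and 0.00597% in RIP. SNORD members took 0.0371%, 0.0426% and 0.0425% in shCONTROL and 0.0338%, 0.0380% and 0.0502% in shBCLAF1, which overlapped, against 0.00516%, 0.00310% and 0.00519% in RIP. SCARNA members had means of 0.0426% ± 0.00188 (SD, n = 3) in shCONTROL and 0.0433% ± 0.00557 in shBCLAF1. In RIP they took 0.00675%, 0.00219% and 0.00233%, a mean of 0.00375% ± 0.00259 with replicate 1 well above the others. No RIP library overlapped an RNA-seq library in any class. SNORD3A alone made 61.5% to 65.3% of the SNORD counts in shCONTROL and 8.88% to 15.0% in RIP, so the SNORD share follows that gene. Without SNORD3A, SNORD members took 0.0147% in shCONTROL and 0.00398% in RIP.

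**Figure D1:**
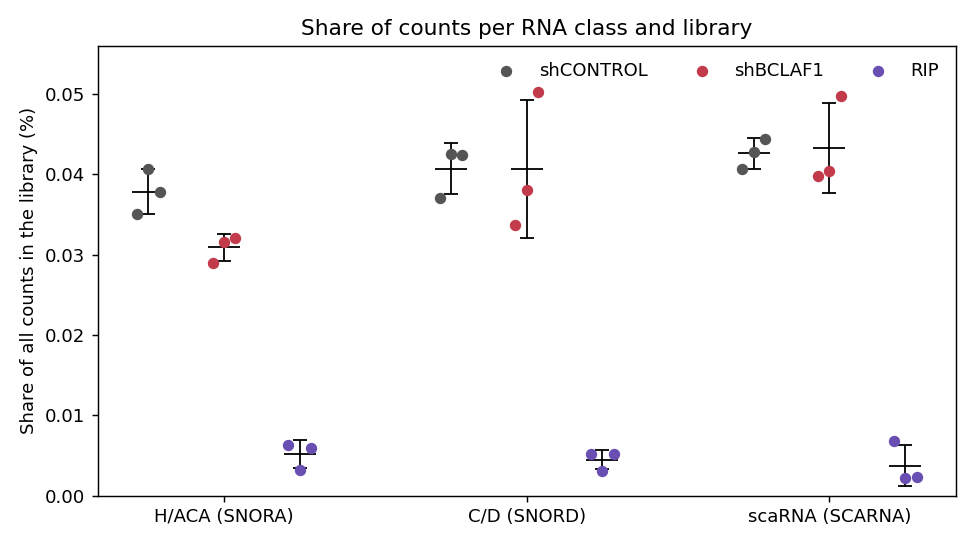
Share of all counts in a library (y axis, percent) taken by H/ACA, C/D and scaRNA members; points are libraries, and black bars are the mean and SD of the 3 libraries of a group. The RIP libraries lie between 0.00310% and 0.00635% for SNORA and SNORD, far below the RNA-seq libraries, and the SNORA points of shBCLAF1 lie below those of shCONTROL.

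The knock-down was compared first, to ask which of these RNAs change when BCLAF1 is lowered. Lower in shBCLAF1 were the H/ACA RNAs SNORA84, SNORA74D, SNORA73A, SNORA5C and SNORA73B and the scaRNA SCARNA9. The rises were SNORD3B-2 and SNORD3B-1, copies of U3. In edgeR's quasi-likelihood test with Benjamini-Hochberg adjustment over all genes tested, these 8 of 98 members tested passed an adjusted p of 0.05, with 6 lower and 2 higher. That is 8.16% of the members tested, where 32.3% of all 16961 genes tested were called (15.5% higher and 16.9% lower). The members tested had a median of 26.7 counts in shCONTROL, and the part of this low level in their share of calls was not tested. By class, 5 of 46 SNORA (10.9%) and 1 of 13 SCARNA were lower and 2 of 39 SNORD were higher, and differences between classes were not tested. The median log2 fold change was −0.04 for SNORA and −0.05 for SNORD, and the median log2 fold change of the 98 was −0.04, against 0.02 for all genes tested. In bulk libraries, fewer cells of one kind and less RNA per cell cannot be told apart.

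SNORA84 had 22, 24 and 21 counts in shCONTROL and 9, 10 and 8 in shBCLAF1. All 3 knock-down libraries were below all 3 controls. This gave −1.40 ± 0.29 on the log2 scale (SE, adjusted p = 0.0125), the most negative change among the members tested, on few counts. SNORA84 lies on chromosome 9 at 92292461-92292593 (GRCh38) within IARS1, the gene of the cytosolic isoleucyl-tRNA synthetase. IARS1 fell by 0.80 ± 0.05 on the log2 scale (adjusted p = 0.000246).

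SNORA74D, an H/ACA RNA of the U19 family at chromosome 5, 139276180-139276323 within SNHG4, had 151, 129 and 156 counts in shCONTROL and 77, 75 and 68 in shBCLAF1. The groups were far apart, and the level in shBCLAF1 was 47.3% of control. The log2 fold change was −1.08 ± 0.12 (adjusted p = 0.00144). Its neighbour SNORA74A had 395, 408 and 373 counts in shCONTROL and 243, 350 and 318 in shBCLAF1. Those groups did not overlap either, but its log2 fold change of −0.46 ± 0.16 did not pass the test (adjusted p = 0.0705). The host SNHG4 fell by 0.50 ± 0.05 (adjusted p = 0.000736), from 3577, 3196 and 3575 counts to 2721, 2637 and 2442. SNORA74A, SNORA74B and SNORA74D are related in sequence, and the counting could split reads between them.

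Both U17 copies fell. SNORA73B, at chromosome 1, 28508558-28508762, had 5870, 6138 and 6256 counts in shCONTROL and 4915, 5075 and 5073 in shBCLAF1. The log2 fold change was −0.37 ± 0.05 (adjusted p = 0.00238), a level of 77.1% of control. SNORA73A, at 28507365-28507571, had 2829, 3658 and 3425 counts in shCONTROL and 2192, 2466 and 2544 in shBCLAF1, a log2 fold change of −0.56 ± 0.13 (adjusted p = 0.0177). For both copies every knock-down library was lower than every control library. Their host SNHG3 fell by 0.29 ± 0.04 (adjusted p = 0.00368). The near-identity of the copies leaves the split of reads between SNORA73A and SNORA73B uncertain.

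SNORA5C, an H/ACA RNA within TBRG4, had 181, 188 and 184 counts in shCONTROL and 140, 158 and 145 in shBCLAF1 (log2 fold change −0.42 ± 0.11, adjusted p = 0.0286). SCARNA9, which guides methylation of the U2 spliceosomal RNA, had 873, 853 and 904 counts in shCONTROL and 781, 796 and 779 in shBCLAF1. Its change was small and tight, −0.25 ± 0.05 on the log2 scale (adjusted p = 0.0133).

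The U3 copies did not move together. SNORD3B-2, at chromosome 17, 19063920-19064136, had 217, 212 and 206 counts in shCONTROL and 428, 340 and 478 in shBCLAF1, a log2 fold change of 0.88 ± 0.15 (adjusted p = 0.00642). SNORD3B-1, at 19061912-19062128, had 109, 101 and 104 counts in shCONTROL and 164, 160 and 233 in shBCLAF1, a log2 fold change of 0.73 ± 0.19 (adjusted p = 0.0275). Every knock-down library was above every control for both. The far more abundant SNORD3A, at 19188016-19188232, had 7977, 9142 and 9787 counts in shCONTROL and 7477, 8348 and 10817 in shBCLAF1. Those ranges overlapped, and the log2 difference of −0.11 ± 0.16 did not pass the test (adjusted p = 0.667). The U3 copies are nearly identical, so how reads were shared among them is uncertain, and the difference between their changes was not tested. None of the 3 lay in the span of another listed gene.

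Leaving out single libraries ended several of these calls. SNORA74D and SNORD3B-2 kept theirs under all 12 alternatives run for each. The adjusted p of SNORA73A was 0.0592 when shCONTROL replicate 3 was left out, 0.0557 for shBCLAF1 replicate 1 and 0.0539 for shBCLAF1 replicate 2. For SNORA84 it was 0.0552 with shCONTROL replicate 2 left out, and for SCARNA9 it was 0.0577 with shCONTROL replicate 3 left out. SNORD3B-1 missed the threshold whichever shCONTROL library was left out (adjusted p = 0.0734 to 0.0889). SNORA5C was not called in 8 alternatives, among them 5 of the 6 left-out libraries and DESeq2. With shCONTROL replicate 2 left out 5 members were called, and with shCONTROL replicate 3 left out 4. A fit of all 9 libraries called 3 of the 8: SNORA74D, SNORA73A and SNORD3B-2. No called member changed sign in any alternative.

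Among scaRNAs other than SCARNA9, no change passed the test. SCARNA2, a guide for the U2 spliceosomal RNA that has its own transcription unit, had 5837, 5192 and 6013 counts in shCONTROL and 5026, 4956 and 7161 in shBCLAF1 (log2 fold change −0.08 ± 0.16, adjusted p = 0.746). SCARNA10, a guide for the U5 spliceosomal RNA with both box types, had 4401, 4878 and 5350 counts against 4885, 4756 and 5694 (−0.03 ± 0.11, adjusted p = 0.880). The ranges overlapped for both. SCARNA5 differed by 0.11 ± 0.12, SCARNA6 by 0.24 ± 0.09 and SCARNA7 by 0.17 ± 0.15 on the log2 scale, none passing the test.

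**Figure D2:**
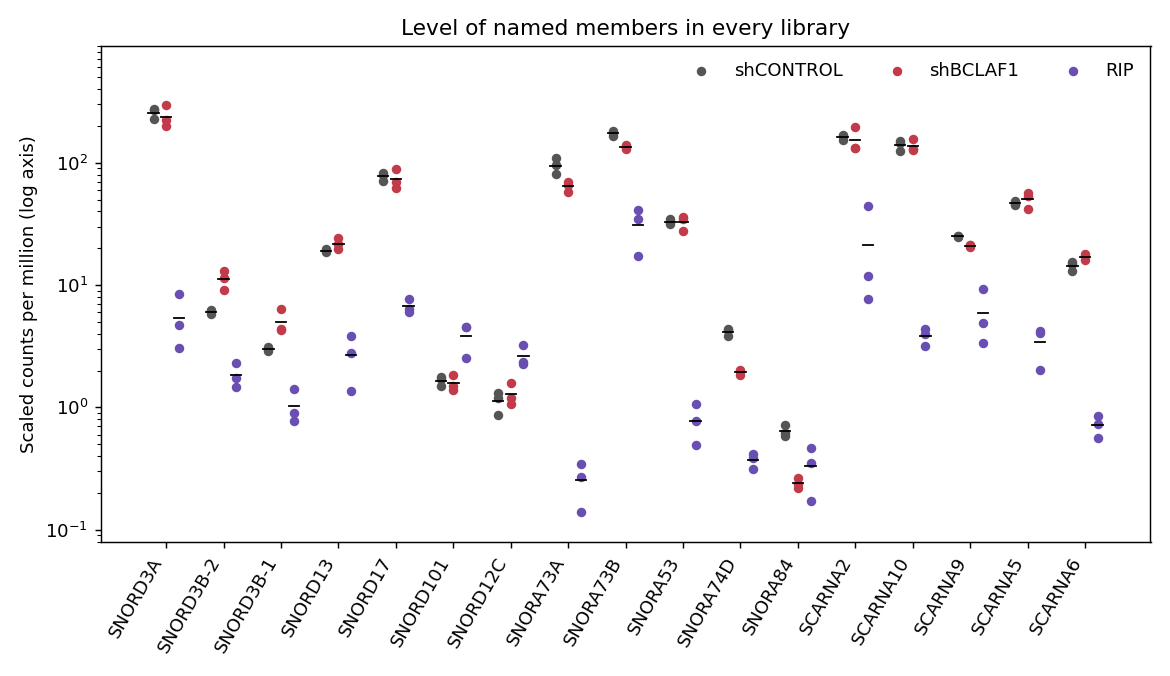
Level of 17 named members in every library, as scaled CPM on a log axis; points are libraries, and short black lines are group means. SNORA74D and SNORA84 lie lower in shBCLAF1, SNORD3B-2 and SNORD3B-1 higher, and all except SNORD101 and SNORD12C lie lower in RIP than in shCONTROL.

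The proteins that bind these RNAs were measured as mRNAs in the same libraries. All 4 box C/D core proteins fell after knock-down, with log2 fold changes of −0.42 for FBL (fibrillarin), −0.62 for SNU13, −0.27 for NOP58 and −0.38 for NOP56. Of the 4 box H/ACA core proteins, DKC1 (dyskerin, −0.40) and GAR1 (−0.51) fell, while NHP2 (−0.24, adjusted p = 0.0655) and NOP10 (0.05, adjusted p = 0.653) did not pass the test. Among 11 assembly factors 6 fell and 1 rose, NOLC1 falling most (−0.52), and among 14 proteins of the U3 particle 8 fell and none rose, including HEATR1 (−0.43). Of 5 Cajal body and scaRNA proteins 2 fell (GEMIN2 and GEMIN4), and of 12 end-processing and decay factors 2 fell (TGS1 and XRN1) and 2 rose (TENT4A and PHAX). The list medians were −0.40, −0.32, −0.18, −0.20, 0.20 and −0.12 in that order, beside 0.02 for all genes tested. Of all genes tested, 16.9% were lower and 15.5% higher. The counts for end-processing and decay factors lay near those shares, and no list was tested as a set. For comparison, of 10 other structured noncoding RNAs tested only RMRP was called (−0.30).

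Members were set beside the genes that contain them. For 84 members tested after knock-down, the smallest protein-coding or long noncoding gene whose span contains the RNA was also tested, giving 67 genes. Of these genes 33 were lower and 5 higher, while 6 members were lower and none higher, 4 of the 6 inside a gene that was itself lower; of all genes tested 16.9% were lower. The genes had far more counts than the members, so the counts of calls are not comparable. On simulated data 31.6% of 2-fold changes were recovered for the knock-down, over genes of all levels rather than these members or genes. The log2 fold change of the member lay above that of its gene in 60 of 84 pairs, a difference that was not tested. All 9 ribosomal protein genes in these pairs fell, with a median over pairs of −0.47. Of those holding only members that were not tested, RPL7A also fell (−0.46, adjusted p = 0.000864). RPL21 (−0.05, adjusted p = 0.768), RPL23A (−0.43, adjusted p = 0.114) and RPS3A (−0.35, adjusted p = 0.0581) did not pass the test. Of the 13 RNAs inside them, with a median of 34 counts in shCONTROL, 0 passed the test, and their median was −0.06 (edgeR; 1 of 13 at an unadjusted p under 0.05, and 0 by DESeq2). RPS12, for example, fell by 0.51 ± 0.06 (adjusted p = 0.00183), while SNORD101, SNORD100 and SNORA33 within it had log2 fold changes of −0.07, −0.03 and −0.26. Of 23 noncoding snoRNA host genes tested, 16 fell and 1 rose. SNORD12C, within ZFAS1, had 46, 29 and 43 counts in shCONTROL and 40, 60 and 44 in shBCLAF1, which overlapped, while ZFAS1 fell by 0.44 ± 0.07 (adjusted p = 0.00591).

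The RIP libraries were compared next with the shCONTROL RNA-seq libraries, to ask which of these RNAs were recovered with BCLAF1 relative to their level in total RNA. The abundant snoRNAs and scaRNAs were far lower in RIP, with SNORD3A at 2.10% of its shCONTROL level, SNORA53 at 2.36% and SCARNA10 at 2.75%. The U17 copies SNORA73A and SNORA73B were at 0.267% and 17.7%, with the split of reads between them uncertain. The short box C/D RNAs SNORD101 and SNORD12C were higher, on calls that each ended when 1 control library was left out. Members were called here at an adjusted p under 0.05 and a change of 2-fold or more. By that rule 38 of 89 members tested were lower (42.7%) and 3 higher (3.37%). One of the 3, SNORD86, was tested only because of its counts in RIP. Without it 2 of 88 were higher (2.27%) and 38 lower (43.2%). SNORD48 (log2 fold change 1.12, not called) also needed its RIP counts to pass the filter on low counts, and stays among the 88. On the lower side, members with few RIP counts passed that filter only through shCONTROL, among them SNORA11B, SCARNA18, SNORA2C and SNORA12. Such members stay in every count and median below, which are descriptions for them. The same filter applied to all genes. Of all 16727 genes tested, 13.6% were lower, 11.1% higher and 24.7% called in all. The same shCONTROL libraries serve this comparison and the knock-down, so the results of both share their error. The median log2 fold change of the 89 was −1.18, beside −0.05 for all genes tested, and stayed at −1.18 with SNORD86 and SNORA11B, each at 0 in one group, set at their bounds.

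Classes differed in these counts. Of 40 SNORA tested, 21 were lower and none higher, with a median log2 fold change of −2.00. Of 12 SCARNA tested, 10 were lower and none higher, with a median of −2.92. Of 37 SNORD tested, 7 were lower and 3 higher, SNORD86 included, with a median of −0.46. DESeq2 also called no SNORA and no SCARNA higher, and edgeR had 0 of either higher at an unadjusted p under 0.05. All 12 SCARNA tested lay lower in each RIP library than in each shCONTROL library. Of all 89 members tested, 64 did not overlap between these groups. The share of all genes tested without overlap was not worked out, so these counts are descriptions. At 0 in all RIP libraries were 10 of the 74 SNORA, 5 of the 78 SNORD and none of the 16 SCARNA. The median member of these classes had 16, 9.5 and 28.2 counts in shCONTROL, in that order. The part of this level in the rows at 0 was not tested. The difference between classes itself was not tested. RIP libraries of smaller size limit this: 3 counts, taken here as the least level told from 0, were 0.0950 to 0.116 CPM in RIP, a limit that covers counting error only, since copies made by PCR are not independent molecules.

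SNORA73A had 2829, 3658 and 3425 counts in shCONTROL and 7, 4 and 10 in RIP, a log2 fold change of −8.52 ± 0.27 (adjusted p = 0.000142). Its close copy SNORA73B had 5870, 6138 and 6256 counts against 884, 492 and 1191, a log2 fold change of −2.49 ± 0.31 (adjusted p = 0.00139). Both copies lie within the same host, and SNORA73B kept 17.7% of its control level in RIP. The near-identity of the copies leaves the split of reads between them uncertain here too, and so the difference between their changes. SNHG3 itself had 11027, 9881 and 11011 counts in shCONTROL and 7793, 5005 and 7016 in RIP (−0.34 ± 0.20, adjusted p = 0.204), so the host did not pass the test.

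Other H/ACA RNAs followed the same direction. SNORA53, at chromosome 12, 98599635-98599884 within SLC25A3, had 1122, 1172 and 1166 counts in shCONTROL and 20, 14 and 31 in RIP (−5.39 ± 0.28, adjusted p = 0.000205). SNORA74A had 395, 408 and 373 counts against 27, 21 and 28 (−3.60 ± 0.19, adjusted p = 0.000219). SNORA74D, also in SNHG4, differed by nearly as much, with 10, 9 and 12 counts in RIP (−3.46 ± 0.24). SNORA2C within KANSL2 and SNORA12 within CWF19L1 had log2 fold changes of −3.63 ± 0.29 and −3.51 ± 0.31. SNORA11B had 19, 18 and 15 counts in shCONTROL and 0 in every RIP library, at least 4.93-fold lower when each RIP library is set at 3 counts. SNORA84, the member most reduced by the knock-down, had 12, 10 and 5 counts in RIP and did not pass the test there (−0.94 ± 0.47, adjusted p = 0.148).

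Among box C/D RNAs the depleted members were the long or independently transcribed ones. SNORD3A had 121, 87 and 244 counts in RIP against 7977, 9142 and 9787 in shCONTROL (−5.57 ± 0.39, adjusted p = 0.000296). The copies SNORD3B-2 (45, 42 and 67 counts in RIP) and SNORD3B-1 (23, 22 and 41) were lower by less, with log2 fold changes of −1.71 ± 0.22 and −1.53 ± 0.30. How reads were shared among these U3 copies is uncertain here too. SNORD17 had 2516, 2766 and 2859 counts in shCONTROL and 198, 171 and 185 in RIP (−3.53 ± 0.13, adjusted p = 0.000142). SNORD15B, within RPS3, had 380, 371 and 382 counts against 30, 23 and 36 (−3.32 ± 0.21). SNORD13 had 693, 622 and 688 counts against 72, 39 and 112 (−2.83 ± 0.37, adjusted p = 0.00157). No RIP library reached any shCONTROL library for these 6 RNAs. SNORD97 was also called (−5.29 ± 1.62, adjusted p = 0.0366), but its shCONTROL counts were 181, 21 and 19, and leaving out shCONTROL replicate 1 gave −3.41 (adjusted p = 0.140). It was also not called when shCONTROL replicate 2 (adjusted p = 0.0546) or 3 (0.0512), or RIP replicate 2 (0.0930) or 3 (0.0876), was left out.

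The scaRNAs were low as a group. SCARNA10 had 4401, 4878 and 5350 counts in shCONTROL and 102, 90 and 127 in RIP (−5.18 ± 0.16, adjusted p = 0.000142). SCARNA6 and SCARNA5, which lie in the same gene, ATG16L1, had 22, 16 and 21 and 108, 58 and 117 counts in RIP. Their log2 fold changes were −4.33 ± 0.20 and −3.77 ± 0.28, while ATG16L1 was higher in RIP (1.27 ± 0.08, adjusted p = 0.000273). SCARNA21 within CHD3 had a log2 fold change of −3.54 ± 0.29, SCARNA7 within KPNA4 of −2.69 ± 0.35 and SCARNA9 within CEP295 of −2.09 ± 0.36. SCARNA2 had 1142, 334 and 222 counts in RIP, replicate 1 standing well above the others, and 5837, 5192 and 6013 in shCONTROL (−2.93 ± 0.67, adjusted p = 0.0128). Each RIP library was still below each control, but SCARNA2 did not pass the test against a 2-fold change (adjusted p = 0.0685).

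The members higher in RIP were few and short. SNORD101, 73 nucleotides at chromosome 6, 132815307-132815379 within RPS12, had 60, 50 and 63 counts in shCONTROL and 116, 72 and 131 in RIP, with no overlap (1.23 ± 0.29, adjusted p = 0.0141). Without shCONTROL replicate 2 its adjusted p was 0.0573. SNORD12C, 79 nucleotides at chromosome 20, 49278945-49279023 within ZFAS1, had 46, 29 and 43 counts against 58, 67 and 94 (1.22 ± 0.29, adjusted p = 0.0154). With shCONTROL replicate 2 left out its adjusted p was 0.0542, and with shCONTROL replicate 3 left out it was just above 0.05. Neither SNORD101 nor SNORD12C passed a test against a 2-fold change (adjusted p = 0.425 and 0.437). SNORD86, 86 nucleotides at chromosome 20, 2656097-2656182, had 34, 22 and 81 counts in RIP and 0 in all 6 RNA-seq libraries, at least 17.6-fold higher when each shCONTROL library is set at 3 counts. It passed the filter on low counts only through RIP, so this difference is a description and no test is given. SNORD86 lies within NOP56, the gene of a box C/D core protein, whose own RNA rose from 11066, 9455 and 11340 counts to 25703, 24958 and 46099 (1.93 ± 0.24, adjusted p = 0.00139). SNORD86 and NOP56 reads at this position cannot be told apart in a gene table.

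Depletion in RIP moved with the annotated length of the RNA, a grouping made after the values were seen. Of 25 tested members under 100 nucleotides, all SNORD, edgeR called 0 lower and 3 higher, with a median log2 fold change of 0.15. In edgeR 1 was lower at an unadjusted p under 0.05, and DESeq2 called 0 lower. Without SNORD86, 2 of 24 were higher, with a median of 0.09. SNORD48, which also needed its RIP counts to be tested, stays among the 24. Of 43 between 100 and 149 nucleotides, 21 were lower, with a median of −1.64. Of 17 at 150 nucleotides or more, all 17 were lower, with a median of −3.07. Within SNORD alone, 0 of 25 under 100 nucleotides, 3 of 7 from 100 to 149 and 4 of 4 above that were lower. Over 85 members with a length, Spearman's rho between length and RIP log2 fold change was −0.78, and over 89 members rho with the shCONTROL level was −0.62. These are descriptions, since members share libraries, and level rose with length: the median shCONTROL count was 17, 29 and 877 in the 3 length classes. The parts of length, level and class were not tested.

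**Figure D3:**
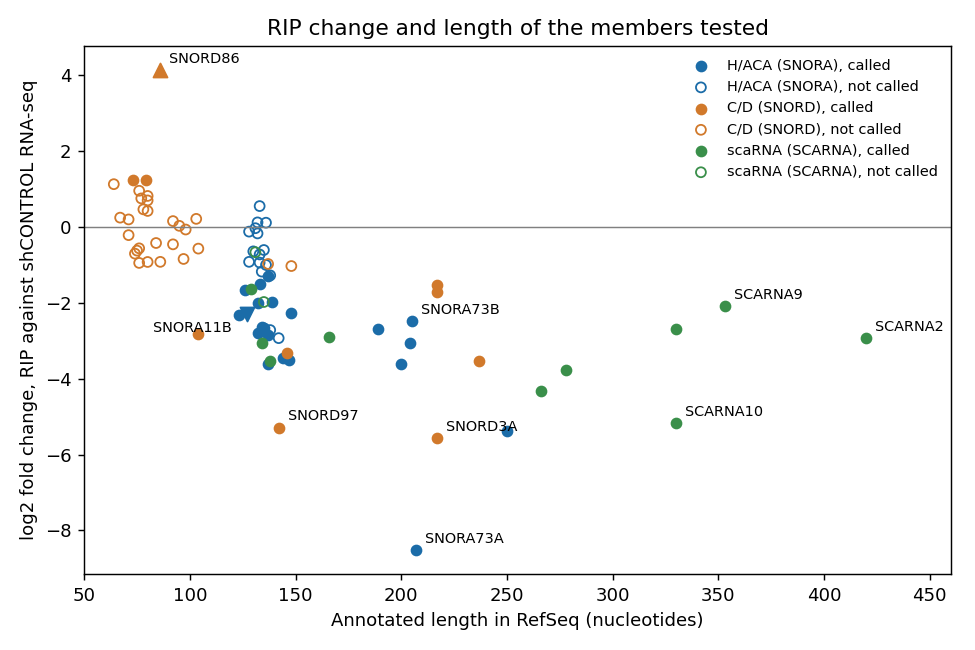
Log2 fold change in RIP against shCONTROL RNA-seq (y axis) by annotated length in nucleotides (x axis) for the 85 tested members with a length; filled points are called, open points are not, and triangles mark SNORD86 and SNORA11B at the bound set by 3 counts per library. All 17 members of 150 nucleotides or more lie below −1.5, and members under 100 nucleotides spread around 0.

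Position showed a related pattern, again grouped after the values were seen. Of 7 tested members outside any listed gene, 6 were lower, among them SNORD3A, SNORD13 and SCARNA2. Of 52 inside coding genes other than ribosomal protein genes, 27 were lower and 1 (SNORD86) higher, with a median of −1.83. Of 13 inside ribosomal protein genes, 1 was lower (SNORD15B) and 1 higher (SNORD101), with a median of 0.03. Of 13 inside noncoding genes 4 were lower and 1 higher. Members inside ribosomal protein genes were also shorter, with a median of 98 nucleotides, but not within each class. Of SNORA, 0 of 4 inside them were lower (median length 133, median change 0.04). In other coding genes 16 of 25 SNORA were lower (median length 134, median change −2.3). For SNORD, 1 of 9 and 2 of 16 were lower, with median lengths of 92 and 82 in that order. The parts of position, length and class were not tested.

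Members and surrounding genes parted in RIP. Over 77 pairs with 62 genes, the member lay below its gene in 66, with a median of −0.98 for members and 0.32 for genes. All 11 SCARNA pairs had the RNA below its gene. The reverse was seen in RPS12: its own counts were 11214, 10960 and 11665 in shCONTROL and 2832, 2948 and 4544 in RIP (−1.38 ± 0.17, adjusted p = 0.00127). The RNAs within it had positive log2 fold changes, 1.23 for SNORD101, 0.95 for SNORD100 (adjusted p = 0.0807) and 0.55 for SNORA33 (adjusted p = 0.185), of which SNORD101 passed the test. The differences between members and genes were not tested.

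**Figure D4:**
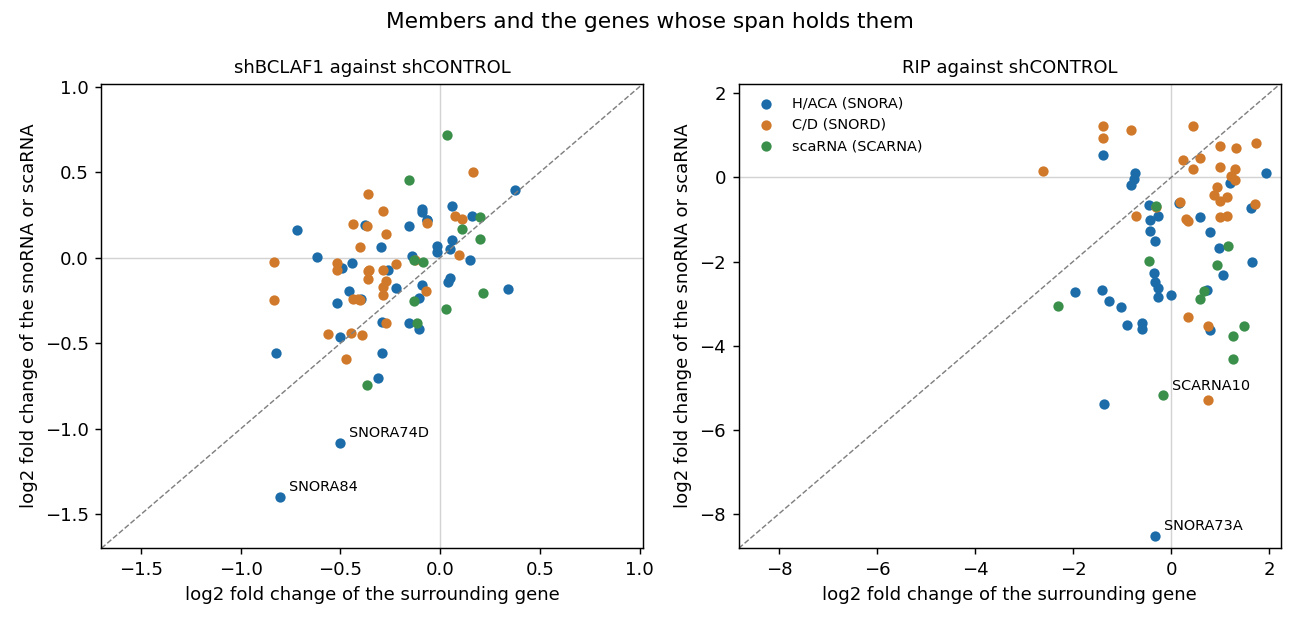
Log2 fold change of a member (y axis) against that of the gene whose span contains it (x axis), for the knock-down (left) and for RIP (right, without SNORD86 and SNORA11B, which were at 0 in one group); the dashed line marks equal change. After knock-down 60 of 84 points lie above the line, and in RIP 66 of all 77 pairs lie below it.

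Low recovery was shared by other structured noncoding RNAs. Of 10 tested, 9 were lower in RIP with a list median of −2.93, including RMRP (−5.71 ± 0.85) and RPPH1 (−4.84 ± 0.92), and RN7SK was not called (−0.28, adjusted p = 0.421). RIP replicate 3 stood apart for these RNAs, with 489, 550 and 3152 counts of RMRP and 2374, 3477 and 21275 of RPPH1. With that library left out, 8 of 10 were lower, RMRP was at −7.06 and RPPH1 at −6.39, and the list median was −3.22. With any single shCONTROL library left out 7 of 10 were lower. The mRNAs of the binding proteins went both ways. NOP56 (1.93) and DKC1 (1.5) were higher in RIP, and GAR1 (−1.18) was lower. FBL (−0.82) and NOP58 (0.87) passed the adjusted p but not the minimum change. Among the U3 particle proteins UTP18 (1.47) was higher, while RRP9 (−1.25) and IMP3 (−1.14) were lower. NAF1 (−1.31), an H/ACA assembly factor, was lower, and EXOSC10 (1.60), a nuclease of the nuclear exosome that trims snoRNA ends, was higher. None of the 5 Cajal body and scaRNA proteins was called. Of 23 noncoding host genes 4 were higher and 1 lower, where 11.1% of all genes tested were higher and 13.6% lower.

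Replicate spread was wider in RIP. Over 90 members with a mean of at least 10 counts, the median coefficient of variation was 12.2% in shCONTROL, 16.3% in shBCLAF1 and 36.5% in RIP. RIP replicate 2 was the lowest of the 3 for 56 of 89 tested members, with a median of 0.754 of the group mean. Of the 41 members called in RIP, 25 kept their call under all 13 alternatives, and no called member changed sign in any.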

How the data were processed

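The values are estimated counts of reads per gene, which the authors deposited as 1 table of whole numbers, not normalised, after steps that the labels do not describe further. Per the submitters' processing notes, STAR 2.7.11b, StringTie 2.2.3 and hg38 were used; the annotation and counting settings are not given in the sources used here. Per the labels' protocols, ribosomal RNA-depleted stranded libraries were read as 2 × 50 bases. A row naming no gene (2.18% to 3.75% of counts in 8 libraries) was left out.

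Genes passing edgeR's expression filter (edgeR 4.0.16, R 4.3.3) were tested in each contrast on its own 6 libraries, with trimmed-mean scaling, group as the only term and Benjamini-Hochberg adjustment over all genes tested. Standard errors are the log2 fold change divided by the square root of F. The same test was run on simulated data, at an adjusted p under 0.05 and without the 2-fold minimum used for RIP calls. The changed genes were drawn from all genes passing the filter, and every gene was given the same spread. The test recovered 99.0% of 4-fold changes for the knock-down and 83.5% for RIP, and 31.6% and 14.3% of 2-fold changes. Alternatives covered scaling, filter, DESeq2 1.42.0, pooled fits, a replicate block, a test against the minimum change and left-out libraries.

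Members and gene lists were chosen with earlier results of these data known. The members named were those with a well-known role, the 3 most abundant per class and those next to the threshold. Also named were up to 5 per class and direction with the largest called changes, and the hosts of all these. SNORA11B, SNORA33, SNORA74B, SNORD48 and SNORD100 were named after their values were seen. Positions of 148 members came from RefSeq (GRCh38.p14) by symbol. Surrounding genes were found by span, without strand, although the same strand had been planned.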

Additional observations from a re-analysis of the deposited data

How the results depend on the processing

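The count of members called after knock-down was 8. It was 3 in a fit of all 9 libraries, 5 with the replicate block, and 4 to 9 with 1 library left out. The count in RIP was 41. It was 27 when tested against a log2 fold change of 1, 30 with the replicate block, and 32 to 44 with 1 library left out. Same-numbered libraries did not clearly deviate together (correlations from −0.021 to 0.056). With 3 libraries per group this cannot show whether they were handled as pairs, and the main fits did not pair them. A library deviated most like the one of its own number in 2 of 3 knock-down and 0 of 3 RIP cases. Total counts moved the median of all RIP genes from −0.05 to −0.17. Without its most abundant member, SNORA took 0.0202% of counts in shCONTROL, 0.0168% in shBCLAF1 and 0.00225% in RIP; in the same order SNORD took 0.0147%, 0.0155% and 0.00398%, and SCARNA 0.0261%, 0.0271% and 0.00169%. Leaving out SNORD86, and single libraries for the other structured RNAs, was chosen after seeing the data. Signs turned only in changes near 0 that did not pass the test. After knock-down, SCARNA10 was at 0.027 and SNORA53 at 0.034 with total counts. With 1 library left out, SCARNA10 ranged from −0.127 to 0.032, SCARNA2 from −0.296 to 0.016, SNORA53 from −0.088 to 0.092, SNORD17 from −0.235 to 0.037 and SNORD3A from −0.291 to 0.012, and in RIP SNORD14A from −0.501 to 0.407. Low counts limit most members (median 13 in shCONTROL), and 2-fold changes were often missed on simulated data that gave every gene the same spread.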
